A study of Mus musculus with 8 samples.

Results

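The nuclear genome encodes most subunits of the mitochondrial respiratory chain and of ATP synthase, and 77 of these genes were followed in sorted mouse beta cells. They were taken from a table of 44343 genes by name: Nduf followed by a, b, c, s or v and a number (complex I), Sdha to Sdhd (complex II), Uqcr (complex III), Cox4 to Cox8 (complex IV) and Atp5 (complex V). Of 95 matching names, 7 with the suffix -ps and 11 with a mean under 10 normalized counts over the 8 libraries were left out. The 77 comprised 36 genes of complex I, 4 of complex II, 8 of complex III, 12 of complex IV and 17 of complex V. The members nearest above the minimum of 10 were Ndufb4 (mean 56.3), Atp5g2 (78.0) and Ndufb2 (87.8), and the nearest below it was Cox6c2 (9.19). All 77 could therefore be tested, and 61 also had a mean of at least 200.

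Complexes I to IV pass electrons from NADH and succinate to oxygen and, except for complex II, pump protons across the inner mitochondrial membrane. Complex V, the ATP synthase, uses the returning protons to make ATP. In beta cells the ATP made from glucose closes potassium channels of the plasma membrane, which sets off insulin release, so this tissue depends on the chain for its sensing of glucose. Complex II is wholly encoded in the nucleus, whereas the other 4 complexes also hold subunits made inside the mitochondrion.

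The libraries came from mice with the transgene MipCreER, in which an insulin promoter expresses a Cre that acts only after tamoxifen, and with the YFP reporter R26R-EYFP. Both groups carried floxed Adar, the gene of an RNA-editing deaminase that turns adenosines of duplex RNA into inosines. The KO mice were Adar floxed/floxed (4 libraries) and the Het controls Adar floxed/+ (4 libraries), so that the controls also lose 1 allele in the same cells. All mice were 1 month old when injected, all received 2 doses of 8 mg tamoxifen, and YFP-positive beta cells were sorted after 7 days. No untreated or Cre-free group was used here. The number of mice behind each library is not in the labels, and the tests rest on the spread among libraries, which may be technical. The design text asks what molecular changes go with islet inflammation after Adar loss.

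The libraries held 5.37 to 15.9 M reads, of which 21436 to 66102 fell on the 77 genes. All 10 beta cell markers had a mean of at least 10, and Ins2 was the most abundant. Their summed level was 925518 to 1234190 rescaled counts in Het and 318710, 787251, 1214130 and 376022 in KO 1 to 4. In this sum KO 1, KO 2 and KO 4 lay below all Het libraries. Most of the sum was Ins2 and Ins1, so it describes these insulin genes more than the list. Ins2 was at 598244 to 763153 in Het and 168814, 479717, 723776 and 208166 in KO 1 to 4. On rescaled counts the log2 fold change was −0.95 for Ins2, −0.91 for Ins1, −0.05 for Iapp, 0.17 for G6pc2 and 0.22 for Mafa, none called. Limma also called 0 of the 10 under the deposited scaling. Macrophage markers summed to 387 to 589 in Het and 113 to 348 in KO, without overlap. C1qa, a complement gene of macrophages, held much of that sum in Het, at 222 to 326 rescaled counts, and 43.6 to 120 in KO. It fell (log2 fold change −1.79 ± 0.43 under the deposited scaling, limma adjusted p = 0.00513). Of 4 macrophage markers with a mean of at least 10, it was the only 1 that limma called. Cd68 was at 39.02 to 53.57 in Het and 18.55 to 37.98 in KO. Csf1r (97.3 to 165 and 40.9 to 120) and Adgre1 (13.1 to 31.1 and 3.27 to 67.5) overlapped between the groups. The part of these shifts in the members' levels was not tested. Adar itself was at 1133 to 1307 rescaled counts in Het and 1177 to 2453 in KO; a gene-level count includes exons that Cre does not remove, so it does not check the labels. The scaling of the libraries decides what is seen. Under the deposited size factors the median gene with a mean of at least 200 lay 0.99 and 1.08 log2 units above the Het mean in KO 1 and KO 2 and at −0.65 and −0.44 in KO 3 and KO 4. Rescaled counts, made here by scaling with TMM factors from those 6697 genes, put that median at 0.00 to 0.01 in all 4 KO libraries. The respiratory chain genes are therefore given on both scales.

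Levels were first compared between the genes within Het beta cells, per kilobase of transcript. Of 75 genes with a matched annotation, Cox6c of complex IV was highest, at 1685 ± 242 rescaled counts per kilobase (SD, n = 4). Among the highest were also Atp5a1, the alpha subunit of the ATP synthase head (1275 ± 15.4), and Atp5b, the catalytic beta subunit (1160 ± 47.2). Cox6c exceeded both by more than its SD, and Atp5a1 exceeded Atp5b by more than either SD. In complex II, Sdha, the flavoprotein that oxidizes succinate, was at 577 ± 29.4 and Sdhb, its iron-sulfur partner, at 306 ± 14.7. The membrane anchors differed from each other, with Sdhd at 307 ± 33.3 and Sdhc at 91.7 ± 11.0. The lowest values in Het were those of Ndufb2 (20.1 ± 4.23) and Atp5g1 (49.5 ± 8.99). These levels depend on the transcript chosen for the length, which was 4371 bases for Ndufb2 and 4715 for Atp5g1.

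**Figure D1:**
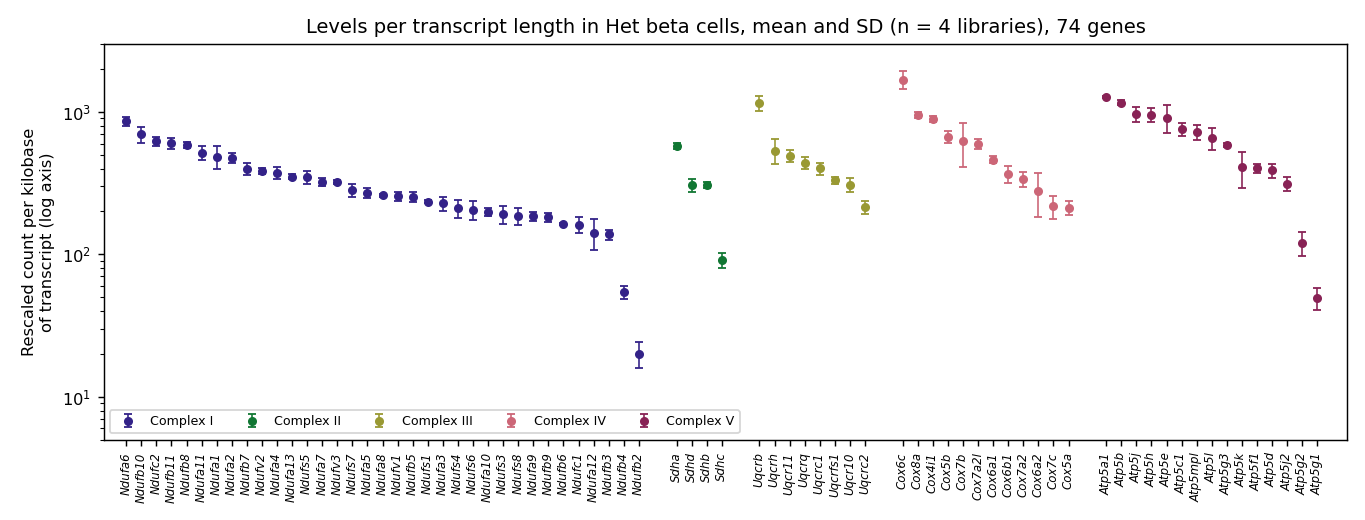
Rescaled counts per kilobase of transcript in Het beta cells (log axis) for 74 genes, grouped by complex and sorted within it, with points for the mean and bars for the SD of 4 libraries. Cox6c lies highest at 1685 and Ndufb2 lowest at 20.1.

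Promoter sequences were examined because genes of this family are known targets of the transcription factors NRF1 and GABPA. RefSeq windows of 300 bases (250 before and 50 after the start, GRCm38.p6) were found for 64 of the 77 genes, 69 windows in all. The NRF1 core, GCGCA and GCGC with any base between them, read on both strands, occurred in 18 of 69 windows (26.1%), belonging to 17 genes, against 4.6% of all 32851 windows. The ETS letters CCGGAAG bound by GABPA occurred in 24.6% against 8.86%, and the YY1 letters AAGATGGC in 14.5% against 2.75%. The interferon-stimulated response element, searched as GAAA, any 2 bases and GAAA again, occurred in 2 windows (2.9%, Ndufa9 and Ndufs3) against 3.44% of all windows. A TATA box (TATAAA) was found in 10.1% against 13.6%, and CCAAT in 40.6% against 37.4%. The background was all RefSeq windows, whether or not their genes are expressed in beta cells, and was not matched for base content. The following stretches of 30 bases, given 5′ to 3′ on the gene's strand with the NRF1 letters in capitals, show the element in 6 genes of 4 complexes:
Ndufa5 (chr6:24527697-24527726, minus strand, 26 bases before the start): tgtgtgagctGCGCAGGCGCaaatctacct
Ndufa8 (chr2:36049349-36049378, minus strand, 30 bases before the start): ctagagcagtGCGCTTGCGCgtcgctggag
Sdha (chr13:74350276-74350305, minus strand, 55 bases before the start): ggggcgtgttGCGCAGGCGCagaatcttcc
Sdhd (chr9:50603909-50603938, minus strand, 79 bases before the start): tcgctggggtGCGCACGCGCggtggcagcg
Cox6a1 (chr5:115349056-115349085, minus strand, 117 bases before the start): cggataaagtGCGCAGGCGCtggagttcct
Atp5k (chr5:108434430-108434459, minus strand, 50 bases before the start): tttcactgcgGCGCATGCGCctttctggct
The distance is counted from the first base of the capitals. In Ndufa8 the letters match on the opposite strand, and in Atp5k the 10 letters read the same on both strands. The window of Ndufa12, the member with the largest difference between the groups, held none of the 6 motifs.

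Subunit genes of the chain were not called between Het and KO under the deposited scaling. In such bulk libraries a difference in RNA per cell and a difference in the share of cells cannot be told apart. Limma called 0 of 77 genes higher and 0 lower in KO at an adjusted p under 0.05, against 0.921% higher and 0.0233% lower of all 21498 genes tested. Unadjusted, 3 passed as higher (Ndufa12, Cox6a2 and Atp5k; background 4.05%) and 0 as lower (background 2.7%). On whole reads edgeR also called 0 higher and 0 lower (background 0.673% and 0.0343%), with 5 and 0 unadjusted (background 4.75% and 1.91%). DESeq2 called 0 and 0 as well (background 1.25% and 0.0178%), with 8 and 0 unadjusted (background 8.4% and 0.589%). The log2 fold change, KO over Het on log2(value + 1), was positive in 75 of 77 genes, with a median of 0.38. Of the 6697 genes of mean at least 200, 5104 were positive, with a median of 0.24. Of all 21498 genes tested, 11678 were positive, with a median of 0.05. On this scale 0 members had their 4 KO values above the 4 Het values, beside 2.19% of all tested genes, and 0 had them below, beside 0.893%. The result depended on which KO libraries entered: with KO 1 and KO 2 alone against Het, limma called 74 of 77 higher (background 45.5%) and 0 lower (background 16.1%). In both libraries the members' median of 1.03 lay close to the 0.99 and 1.08 of all genes of mean at least 200, a shift of the deposited scaling, so nothing about the members is read from that count. With KO 3 and KO 4 alone it called 0 higher (background 1.27%) and 1 lower, Ndufa4 (background 7.45%).

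Rescaling took the shift common to the abundant genes out of these values, and with all 8 libraries the members' median stayed above theirs. The median log2 fold change of the 61 genes in that fit was 0.12, beside 0.00 for all 6697 genes. Over all 77 genes it was 0.14 with the same factors, and 0.38 beside 0.24 under the deposited scaling. The members' rescaled median over the Het mean was 0.04, −0.04, 0.79 and −0.19 in KO 1 to 4, so the excess rested on KO 3. Without KO 3 the median log2 fold change was −0.07 for the 77 members, beside −0.01 for genes of mean at least 200. Limma called 2 of 61 higher, Ndufa12 and Ndufa5, or 3.28% beside a background of 6.03%, and 0 lower beside 4.24%. Unadjusted, 5 passed as higher (background 15.6%) and 0 as lower (background 15.3%). With the same factors on all genes of mean at least 10, limma called 0 of 77 in each direction (background 1.14% higher and 0.391% lower), with 7 higher and 0 lower unadjusted (background 7.29% and 6.07%). The counts of members called in these fits are too small to set their share apart from that of all genes, so nothing about the members is read from them.

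Complexes I and III stood highest and complex V lowest under both scalings. Under the deposited scaling the median log2 fold change was 0.45 for complex I, 0.44 for complex III, 0.35 for complex IV, 0.27 for complex II and 0.19 for complex V. Over the members of mean at least 200 on rescaled counts, the median was 0.20 for complexes I and III, 0.10 for IV, 0.03 for II and −0.02 for V. These medians are descriptions, and a difference between complexes was not tested.

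**Figure D2:**
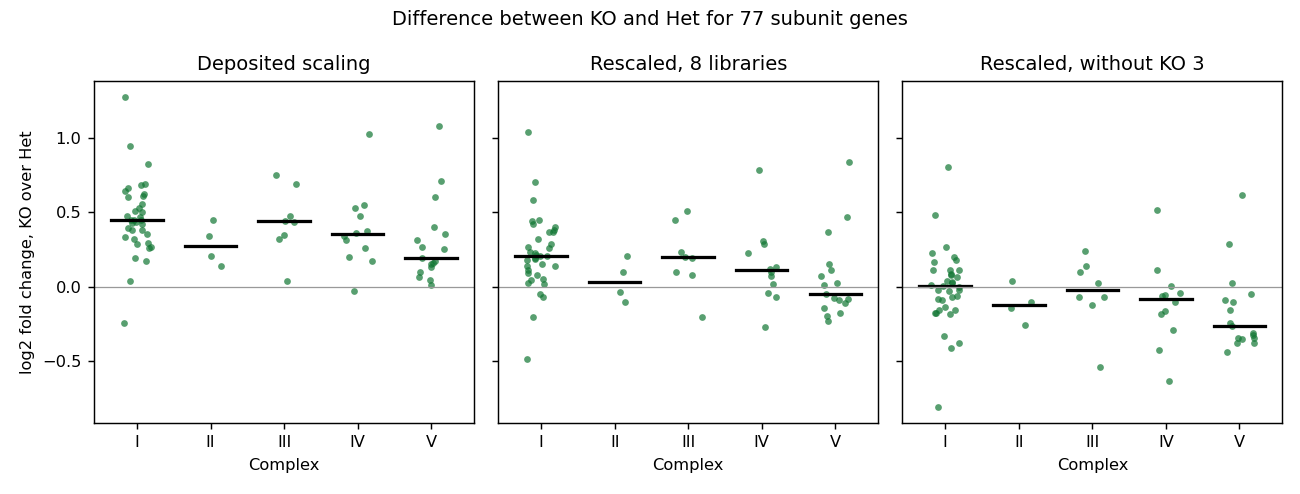
Log2 fold changes of KO over Het for each of the 77 genes by complex, with a line at the median, under the deposited scaling, on rescaled counts of 8 libraries and on rescaled counts without KO 3. Under the deposited scaling 75 genes lie above 0, beside 11678 of all 21498 genes tested. Without KO 3 on rescaled counts 29 lie above and 48 below, beside 15366 of the 21498 below.

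On rescaled counts KO 3 stood apart. Its median log2 level over the 77 genes lay 0.79 above the Het mean, whereas KO 1 lay at 0.04, KO 2 at −0.04 and KO 4 at −0.19. The Het libraries lay between −0.04 and 0.01. KO 3 held the highest value of all 8 libraries in 75 of 77 genes (97.4%), compared with 26.4% of all genes of mean at least 200. In KO 3 the median was 0.91 for complex I, 0.88 for complex III, 0.80 for complex IV, 0.69 for complex V and 0.52 for complex II. KO 4 lay below the Het mean in 56 of 77 genes, beside 3293 of the 6697 genes of mean at least 200. Its median ran from −0.32 in complex IV to −0.07 in complex I. The share of all reads on the 77 genes, which needs no scaling factor, was 0.515% in KO 3, 0.340% to 0.416% in the other KO libraries and 0.337% to 0.365% in Het.

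**Figure D3:**
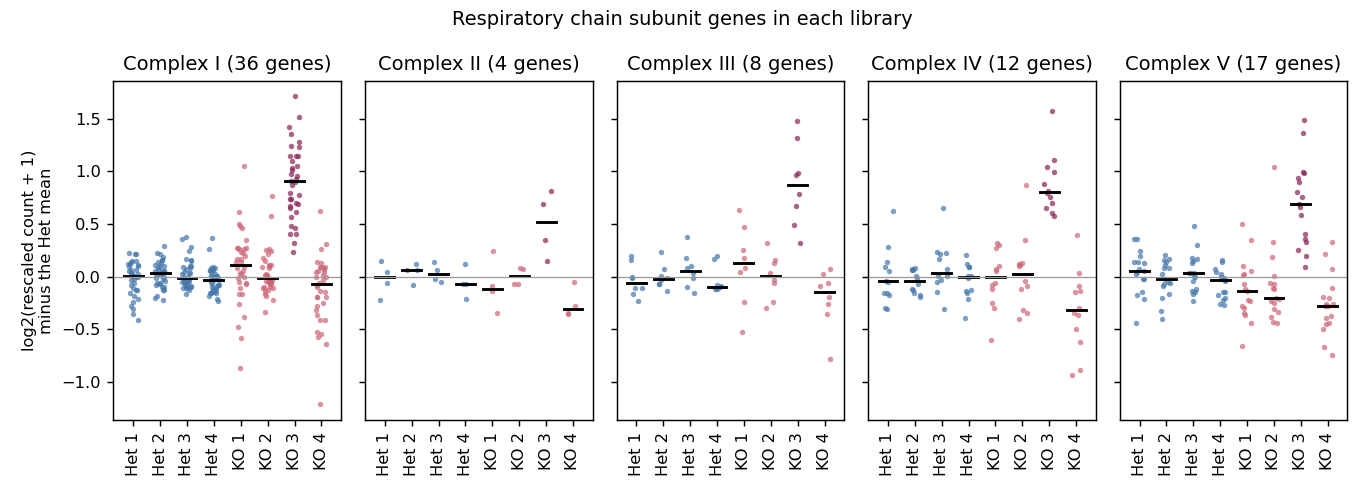
Rescaled level of each gene in each library, as log2(rescaled count + 1) minus the mean of the 4 Het libraries, by complex; a point is a gene and a line the median. In every complex KO 3 stands above the other 7 libraries, with medians from 0.52 to 0.91.

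KO 3 differed from the other libraries in other measures as well. It was the shallowest, at 5.37 M reads, and mitochondrial ribosomal RNA took 16.1% of its reads against 5.97% to 9.10% elsewhere. Olfactory and vomeronasal receptor genes, whose products belong to sensory neurons, took 0.327% of its reads, 0.294% in KO 4 and 0.0353% to 0.244% in the other 6. Short transcripts were high in it: over genes of mean at least 200 ranked by transcript length and split into 4 equal groups, its median level was 0.44 in the shortest group (345 to 2393 bases) and −0.38 in the longest. The shortest group held 54 members, with a median of 0.79 in KO 3, the second 4, the third 1 and the longest 0. Among 75 members the level in KO 3 ran against length, with a Spearman rho of −0.33 (beside −0.58 over 6552 genes); the points share 1 library. KO 3 also had the highest summed level among all libraries for the marker lists of alpha, delta, acinar, endothelial, pericyte, T and B cells and of muscle, such as 3296 rescaled counts for 5 alpha cell markers against 1166 to 2442 in the other 7 libraries, and 300 for 8 acinar cell markers against at most 185, that of KO 4, in the other 7. Of the markers searched, 0 were at 0 in every library. The part of depth, ribosomal RNA, transcript length and other cell types in the members' level was not tested.

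**Figure D4:**
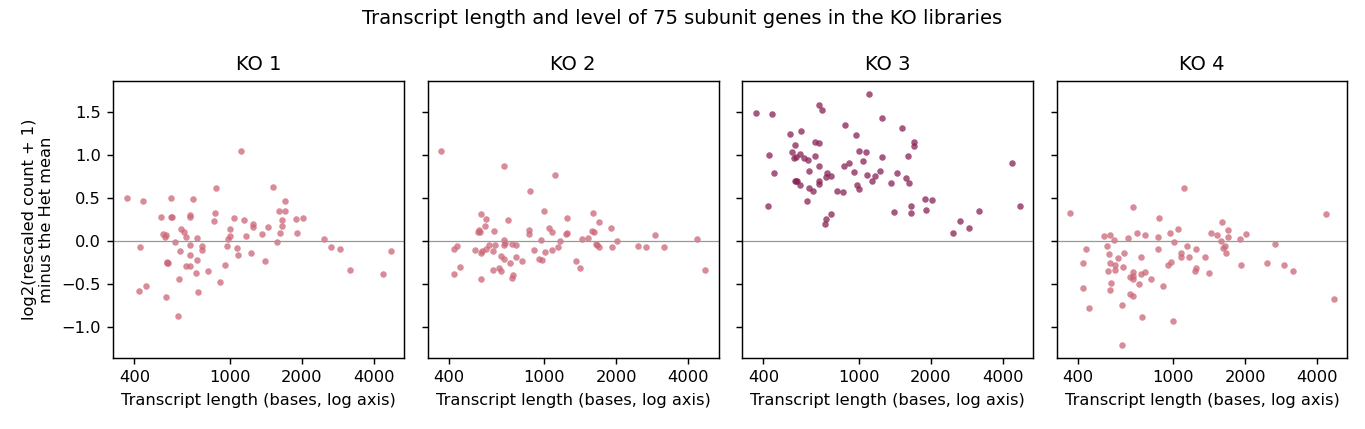
Transcript length in bases (log axis) against log2(rescaled count + 1) minus the Het mean for 75 genes, 1 panel for each KO library. In KO 3 all points lie above 0 and fall with length (Spearman rho −0.33, n = 75 genes), while in KO 4 rho is 0.25.

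Without KO 3 more members lay below Het than above it on rescaled counts, and the same held for all genes tested. Complexes I and III were evenly split. With the factors applied to genes of mean at least 10, 29 of 77 were positive and 48 negative, with a median of −0.07 (0.14 with KO 3). In that fit 15366 of all 21498 genes were negative, with a median of −0.32. Of the 6697 genes of mean at least 200, 3434 were negative, with a median of −0.01. Complex V had 14 of 17 genes negative with a median of −0.26, complex IV 9 of 12 with −0.08, complex I 18 of 36 with 0.00 and complex III 4 of 8 with −0.02. With only the genes whose mean was 200 or more, limma then called 2 of 61 members higher (background 9.12%) and 2 lower (background 7.51%), with 4 and 10 unadjusted (background 17.5% and 18.4%). Ndufa12 and Ndufa5 were the 2 higher, and Cox6c and Atp5g3 the 2 lower. Over genes of mean at least 10, limma called 1 of 77 lower, Cox6c (background 1.16%), and 0 higher (background 1.76%).

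Within complex I, the strongest difference was that of Ndufa12, an accessory subunit whose gene lies on chromosome 10 (94198720 to 94221443, plus strand, mm10). Its rescaled counts were 115, 134, 197 and 184 in Het 1 to 4 and 319, 263, 506 and 237 in KO 1 to 4. All 4 KO values lay above all 4 Het values, and KO 3 was highest. The mean rescaled count was 158 ± 39.2 in Het and 331 ± 121 in KO (SD over 4 libraries). The log2 fold change was 1.04 with an SE of 0.25 (limma adjusted p = 0.0286), and 1.28 ± 0.46 under the deposited scaling (limma adjusted p = 0.304); errors of log2 fold changes are SEs throughout. The call on rescaled counts was lost without Het 1 (limma adjusted p = 0.0976), Het 2 (0.0911), Het 4 (0.0505) or KO 1 (0.0753), without either pair of KO libraries (0.0570 and 0.0571), and with all genes of mean at least 10 tested (0.0583). Gm15920, a gene model 99.5% identical to Ndufa12 over 402 bases, had a mean of 38.3 normalized counts beside 241 for Ndufa12, and reads shared between them cannot be assigned.

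Ndufa5, an accessory subunit of the matrix arm (chromosome 6, 24518666 to 24528013, minus strand), was also called. Its rescaled counts were 207, 244, 241 and 250 in Het and 361, 351, 601 and 283 in KO. The groups did not overlap, with KO 4 nearest to Het. It had a log2 fold change of 0.70 ± 0.20 (limma adjusted p = 0.0497) and 0.94 ± 0.49 under the deposited scaling (limma adjusted p = 0.741). The call sat at the threshold, and was lost with a pseudocount of 8 (0.0501) and on leaving out any Het library (0.0871 to 0.143) or KO 1 (0.0996). The log2 fold change of Ndufa8, which also had 4 KO values above Het (230 to 331 against 220 to 230 rescaled counts), was 0.23 ± 0.14 (limma adjusted p = 0.282), and 0.11 without KO 3 (limma adjusted p = 0.475). Ndufa8 was named after its values were seen.

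The core subunits of complex I, which carry its flavin, its iron-sulfur clusters and its quinone site, were not called in any of the fits with all 8 libraries. Ndufs1, which holds several iron-sulfur clusters, was at 624 ± 18.2 rescaled counts in Het and 633 ± 67.6 in KO, a log2 fold change of 0.02 ± 0.11. Ndufv1, which binds NADH, had 0.11 ± 0.14, and Ndufs7, next to the quinone site, 0.05 ± 0.19 (limma adjusted p of Ndufs1, Ndufv1 and Ndufs7 from 0.604 to 0.928). Ndufv2 had the highest of the core subunits, 0.44 ± 0.20 (limma adjusted p = 0.164), and was named after its values were seen. Over the 7 core subunits the median under the deposited scaling was 0.44, beside 0.45 for the 29 accessory subunits. On rescaled counts of genes of mean at least 10 it was 0.20 beside 0.21, and 0.01 beside −0.02 without KO 3. In these fits 7 core subunits were positive with KO 3 and 4 without it, beside 3332 and 3263 of the 6697 genes of mean at least 200.

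Ndufa4 carries a complex I name, although its protein is now placed in complex IV. It had the lowest log2 fold change of all members under the deposited scaling, −0.25 ± 0.45 (limma adjusted p = 0.964). Its rescaled counts were 251, 243, 213 and 204 in Het and 124, 180, 312 and 97.5 in KO. KO 1, KO 2 and KO 4 lay below all Het values and KO 3 above them. On rescaled counts of genes of mean at least 10 the log2 fold change was −0.49 ± 0.29 (limma adjusted p = 0.572), and −0.81 without KO 3 (limma adjusted p = 0.0512).

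Complex II showed little difference. Sdhb was at 362, 367, 338 and 333 rescaled counts in Het and 415, 334, 565 and 337 in KO, so that the groups overlapped. Its log2 fold change of 0.20 ± 0.16 was the highest of the complex, and that of Sdhc, −0.10 ± 0.17, the lowest (limma adjusted p = 0.418 and 0.719); without KO 3 they were 0.04 and −0.26. Sdha was at 1674 ± 85.2 in Het and 1643 ± 209 in KO, and Sdhd at 378 ± 41.1 and 424 ± 163. Their log2 fold changes were −0.03 ± 0.13 and 0.10 ± 0.22.

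In complex III, Uqcrq, a small subunit near the cytochrome b core, stood highest. It was at 767, 661, 624 and 627 rescaled counts in Het and 1032, 683, 1660 and 700 in KO. KO 1 and KO 3 lay above Het, while KO 2 and KO 4 were within its range. Its log2 fold change was 0.51 ± 0.24 (limma adjusted p = 0.178), and 0.75 ± 0.55 under the deposited scaling (limma adjusted p = 0.896). Without KO 3 the rescaled value was 0.24 (limma adjusted p = 0.271). Uqcrfs1, the Rieske iron-sulfur protein, and Uqcrc1, a core protein, had 0.08 ± 0.18 and 0.10 ± 0.12. The lowest of the complex under the deposited scaling was Uqcr11, at 0.04 ± 0.46. Its rescaled counts were 203 to 248 in Het, and 152, 178, 378 and 127 in KO, with only KO 3 above Het.

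In complex IV, Cox6a2 and Cox6c lay at opposite ends. Cox6a2, the isoform known from heart and skeletal muscle (chromosome 7, 128205435 to 128206387, minus strand), was at 148, 159, 287 and 163 rescaled counts in Het and 225, 334, 544 and 239 in KO. The groups overlapped through Het 3, which exceeded KO 1 and KO 4. The log2 fold change was 0.79 ± 0.29 (limma adjusted p = 0.0960), 0.52 without KO 3 (limma adjusted p = 0.159), and 1.03 ± 0.47 under the deposited scaling (limma adjusted p = 0.626). Cox6c was at 1497, 1240, 1116 and 1120 in Het and 815, 937, 2137 and 669 in KO. Here KO 1, KO 2 and KO 4 lay below all Het values and KO 3 above all of them. The log2 fold change was −0.27 ± 0.30 (limma adjusted p = 0.565) with 8 libraries and −0.63 without KO 3 (limma adjusted p = 0.0231). Cox6c overlaps Vps13b on the other strand, whose mean of 1235 normalized counts was above the 1079 of Cox6c, and the strand setting of the counting is not given in the sources used here. The subunits that sit on the catalytic core, Cox4i1, Cox5a and Cox5b, had log2 fold changes of 0.07 ± 0.20, 0.10 ± 0.20 (in the fit of genes of mean at least 10) and 0.31 ± 0.18, and were not called.

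Isoform pairs of complexes IV and V were set against each other within each library, per kilobase, which removes the scaling. Cox6a2 made up 31.2%, 32.6%, 47.6% and 36.2% of Cox6a1 and Cox6a2 in Het and 37.2%, 53.1%, 52.5% and 49.2% in KO. KO 2, KO 3 and KO 4 lay above all Het libraries and KO 1 below Het 3. The mean was 36.9% ± 7.45 in Het and 48.0% ± 7.39 in KO (SD, n = 4 each; two-sided exact permutation p = 0.0571, and 0.514 after Benjamini-Hochberg adjustment over 9 shares). The smallest p that 70 arrangements allow is 0.0286. Muscle markers summed to 402, 262, 183 and 335 rescaled counts in Het 1 to 4 and 76.4, 63.9, 439 and 352 in KO 1 to 4. Their part in the Cox6a2 level was not tested. Atp5g3, 1 of 3 genes for the identical c subunit of the ATP synthase ring, made up 77.6% ± 2.14 of the 3 in Het and 77.3% ± 1.71 in KO (two-sided exact permutation p = 0.714). The size of this share depends on the transcripts chosen, of 4715 bases for Atp5g1, 731 for Atp5g2 and 723 for Atp5g3. Before division by length the Het means were 233, 88.0 and 424 rescaled counts. The other isoforms of hypoxia, muscle or testis (Cox4i2, Cox7a1, Cox8b, Cox6b2 and Ndufa4l2) had means under 10, and their share within their pair or trio was at most 10.2% in any library.

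In complex V, Atp5k, the e subunit that helps to join ATP synthase dimers, had the highest log2 fold change. It was at 109, 128, 206 and 164 rescaled counts in Het and 209, 305, 416 and 185 in KO. The groups overlapped only through Het 3 and KO 4. Atp5k had a log2 fold change of 0.84 ± 0.27 (limma adjusted p = 0.0698), and 1.08 ± 0.46 under the deposited scaling (limma adjusted p = 0.518). Atp5f1, the b subunit of the stator stalk, was at 609 to 717 in Het and 823, 812, 1285 and 751 in KO. Its groups did not overlap, and the log2 fold change was 0.47 ± 0.16 (limma adjusted p = 0.0812), and 0.29 without KO 3 (limma adjusted p = 0.0578); Atp5f1 was named after its values were seen. The catalytic subunits Atp5a1 and Atp5b had −0.05 ± 0.14 and 0.03 ± 0.15, and Atp5c1, the central stalk, 0.16 ± 0.19. Atp5g3 had the lowest log2 fold change under the deposited scaling, 0.01 ± 0.50. Its rescaled counts were 438, 404, 433 and 420 in Het and 328, 355, 485 and 299 in KO, with KO 3 alone above Het, and without KO 3 the log2 fold change was −0.38 (limma adjusted p = 0.0329).

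**Figure D5:**
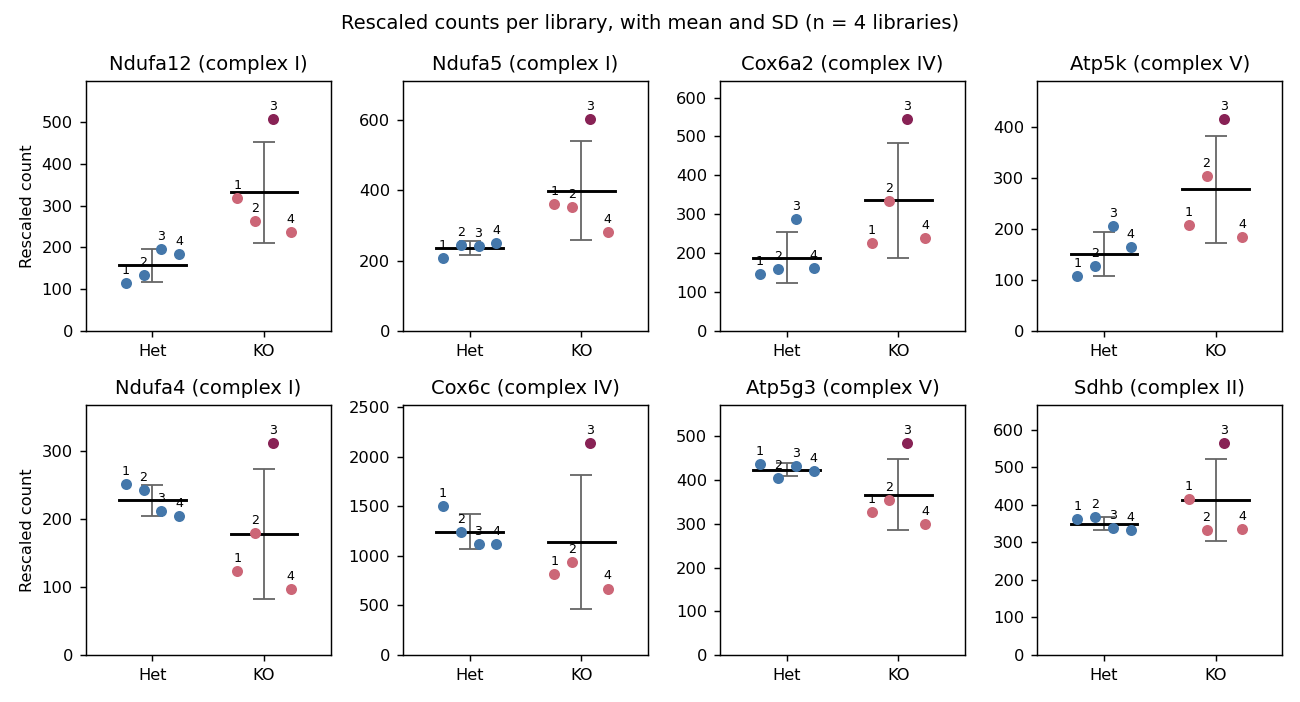
Rescaled counts of 8 genes in the 4 Het and 4 KO libraries; points are libraries with their replicate number, the line is the mean and the bar the SD. In Ndufa12 and Ndufa5 the groups do not overlap, and in Ndufa4, Cox6c and Atp5g3 KO 3 is the only KO library above Het.

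On rescaled counts 4 of 61 members (Ndufa12, Ndufa5, Ndufa8 and Atp5f1) had every KO value above every Het value, or 6.56% beside a background of 11.7% of genes of mean at least 200, and 0 had them below, beside 10.3%. Near-identical copies, at least 95% identical over at least 30% of the transcript, were found for 21 of 75 members, and the highest mean of such a copy was 66.1. Of the members, 22 overlap another gene of mean at least 10, always on the other strand, and in 6 that gene had the higher mean.

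Genes that build and regulate the chain were examined as lists. Over all genes tested, limma under the deposited scaling called 0.921% higher (4.05% higher and 2.7% lower unadjusted), edgeR 0.673% and DESeq2 1.25%. The median log2 fold change under that scaling was 0.05 over all 21498 genes and 0.24 over those of mean at least 200. Of 52 assembly factors of the 5 complexes, limma called 0 under the deposited scaling (9 higher and 0 lower unadjusted), and edgeR and DESeq2 each called 1 higher. The median log2 fold change was 0.57 for the 18 assembly factors of complex I, 0.60 for 4 of complex II, 0.37 for 6 of complex III, 0.54 for 21 of complex IV and 0.50 for 3 of ATP synthase. Cox20, which helps to mature a mitochondrially made complex IV subunit, was at 99.7 to 104 rescaled counts in Het and 216, 159, 430 and 242 in KO, with no overlap. It was called higher with the TMM factors on genes of mean at least 10 (1.26 ± 0.25, limma adjusted p = 0.0310). Of 17 regulators of mitochondrial gene expression, limma, edgeR and DESeq2 called 0 under the deposited scaling or on whole reads (limma 3 higher and 0 lower unadjusted). On rescaled counts 7 had a mean of at least 200, and limma called 2 of these higher (background 6.03%) and 0 lower (background 4.24%). Nrf1, the transcription factor of the promoter letters above, was at 470, 367, 358 and 389 rescaled counts in Het and 950, 520, 648 and 806 in KO. Its groups did not overlap, and KO 1 was highest. Nrf1 had a log2 fold change of 0.86 ± 0.18 (limma adjusted p = 0.0177), and 1.10 ± 0.52 under the deposited scaling (limma adjusted p = 0.661). Tfam, which packages and transcribes mitochondrial DNA, was at 217 to 258 in Het and 439, 311, 492 and 346 in KO, a log2 fold change of 0.73 ± 0.15 (limma adjusted p = 0.0188). Gabpa, at 442 to 496 in Het and 473 to 655 in KO, was not called (0.29 ± 0.12, limma adjusted p = 0.144).

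The 13 subunits encoded in mitochondrial DNA followed their own pattern across libraries. They took 0.927% to 1.05% of reads in Het and 0.788%, 1.28%, 1.31% and 0.824% in KO 1 to 4. KO 2 and KO 3 lay above Het and KO 1 and KO 4 below it. The nuclear members' share of reads ordered the libraries otherwise, with KO 3 (0.515%) and KO 1 (0.416%) above Het, KO 2 (0.367%) close to the Het maximum of 0.365% and KO 4 (0.340%) within the Het range. Of the 11 with a mean of at least 10, limma, edgeR and DESeq2 called 0. Their median log2 fold change was 0.35, beside 0.24 for all genes of mean at least 200. Unadjusted, 4, 1 and 2 were higher (background 4.05%, 4.75% and 8.4%) and 0 lower (background 2.7%, 1.91% and 0.589%). The enzymes of the TCA cycle, which feed the chain, were listed together with pyruvate dehydrogenase and pyruvate carboxylase. That list had a median of 0.28 with 0 of 19 called by limma, edgeR or DESeq2, also unadjusted. On rescaled counts Pcx, pyruvate carboxylase, fell, from 1285 to 1482 in Het to 844, 1187, 806 and 1016 in KO. Its log2 fold change was −0.57 ± 0.14 (limma adjusted p = 0.0312). It was the only gene called of 18 in that list (background 4.24%) and is not itself an enzyme of the cycle. Cytosolic ribosomal protein genes, which are also short, had 0 of 85 called by limma under the deposited scaling, with a median of 0.68. Unadjusted, 6 were higher (background 4.05%) and 0 lower (background 2.7%). On whole reads edgeR had 18 of 85 higher unadjusted (background 4.75%) and DESeq2 36 of 81 (background 8.4%), with 0 called after adjustment in each. On rescaled counts 5 of 78 were called higher (background 6.03%), and 27 were higher unadjusted (background 15.6%). Mitochondrial ribosomal protein genes had 0 of 77 called by limma under the deposited scaling, with a median of 0.61. Unadjusted, 9 were higher and 0 lower (background 4.05% and 2.7%). On whole reads edgeR had 29 and DESeq2 28 of 77 higher unadjusted (background 4.75% and 8.4%), with 0 called after adjustment in each. On rescaled counts 1 of 28, Mrps18a, was called higher (background 6.03%), and 15 were higher unadjusted (background 15.6%). In KO 3 the median of these lists was 1.13 for cytosolic and 0.90 for mitochondrial ribosomal proteins, 0.22 for the TCA cycle and 0.79 for the respiratory chain genes. With the same factors on all genes of mean at least 10, the limma adjusted p was 0.0709 for Pcx and 0.0805 for Mrps18a, and 0 cytosolic ribosomal protein genes were called, whereas Nrf1 (0.0376) and Tfam (0.0415) stayed under the threshold.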

How the data were processed

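Libraries of sorted beta cells were made with Takara's SMARTer Stranded Total RNA-Seq Kit (pico input), per the labels' protocols. Tools in the submitters' processing notes are STAR 2.7.3a, HTSeq, UMI-tools, FastQC 0.11.8 and DESeq2 1.28.1, with the build mm10, and no roles; the annotation, counting mode and strand setting are not given in the sources used here. The deposited signal values are gene counts that the authors divided by 1 size factor per library, per the file headers "normalized counts" and the values: in each library 100% were whole multiples of 1 step (tolerance 0.001), which gave back whole reads. The deposited factors equal DESeq2's median-of-ratios factors on those reads, and the total reads set the precision of low values.

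Groups came from the sample titles. Limma 3.58.1 (R 4.3.3) was run on log2(value + 1), with genotype as the only term, trend and robust settings, two-sided, with Benjamini-Hochberg adjustment over all genes tested and a threshold of 0.05. It was run on deposited values of 21498 genes (mean of 10 or more), and on counts rescaled with TMM factors (edgeR 4.0.16) from 6697 genes (mean of 200 or more). Under the deposited scaling limma gave genes of similar level the same spread, so p-values there do not use a gene's own spread. Single shares were compared with exact permutation tests. Alternatives were other pseudocounts and filters, TMM over all genes, edgeR, DESeq2 1.42.0 on whole reads, the replicate number as a block, and leaving out each library or pairs of KO libraries; applying the TMM factors to genes of mean at least 10, with and without KO 3, was added after seeing the data. The limma fits were tested on simulated data.

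The members, gene lists, markers and naming rule were chosen with earlier results of these data known. The rule names members called in either limma fit, the highest mean and the largest and smallest log2 fold change of each complex, core subunits, isoforms, members near the minimum mean and called genes of other lists; of each marker list it takes the gene of highest mean. Coordinates and lengths are from GENCODE M21 (mm10), in which 75 members were matched once; Atp5md and Atp5o were not, and have no length. The values of 1 gene are not reported here. Promoter sequences are RefSeq's (GRCm38.p6).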

Additional observations from a re-analysis of the deposited data

Results flagged for a closer look

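In 84 groups of 4 libraries, 8 had 1 library far from the other 3 by Dixon's criterion, where chance gives about 1 in 20 groups. The groups share the same 8 libraries and are not independent, so that rate is no test of their number. In KO, 6 of the 8 were KO 3 and high. The median log2 level of complex V over the Het mean was 0.69 in KO 3 and −0.28 to −0.14 in the other KO libraries. Cox7a2, a small complex IV subunit, was at 443 rescaled counts in KO 3 against 145 to 181. Cox7a2l, which joins complexes III and IV into supercomplexes, was at 1319 against 583 to 688. Of complex I, Ndufb4 was at 124 against 50.2 to 56.1, Ndufs1 at 734 against 594 to 609, and Ndufs8, an iron-sulfur subunit, at 386 against 170 to 205. In Het, Cox6a2 was at 287 in Het 3 against 148 to 163, and the median log2 level of all members was −0.038 in Het 4 against 0.00 to 0.01 in the other 3, a gap of no size beside those in KO.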

How the results depend on the processing

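No result changed sign with a call on either side. Under the deposited scaling, the number of members higher was 0 to 1 on leaving out 1 library, 2 with TMM factors from genes of mean at least 200, and 74 of 77 without KO 3 and KO 4 (background 45.5%). The number lower was 1 without KO 1 and KO 2 (Ndufa4, background 7.45%). The median log2 fold change without KO 3 and KO 4 was 1.04 for all members and 1.10, 1.02, 1.11, 1.04 and 0.81 for complexes I to V, beside medians of all genes of mean at least 200 of 0.99 in KO 1 and 1.08 in KO 2. Without KO 1 and KO 2 it was −0.27 for all, and −0.20, −0.43, −0.27, −0.32 and −0.44, beside −0.65 in KO 3 and −0.44 in KO 4 for those genes. On rescaled counts the number higher was 0 to 2 and the number lower 0 to 2 on leaving out 1 library, with 2 lower without KO 3. It was 1 with a pseudocount of 8, 1 without KO 3 and KO 4 and 0 without KO 1 and KO 2, and 0 with the factors applied to genes of mean at least 10, with or without KO 3; without KO 3 that fit had 1 lower. The replicate block gave 5 higher of 61 (Ndufa12, Ndufa5, Atp5k, Cox6a2 and Atp5f1; background 7.45%). Same-numbered libraries correlated at 0.22, −0.05, 0.13 and 0.28, and not every library correlated best with its own number, so the numbers are not taken to pair the samples. Causes were not tested, apart from fewer libraries or genes in the fits that leave them out. Of 1094 values of single members under alternatives, 41 gained and 17 lost a call, and 122 uncalled values in 28 of 34 named members changed sign. Depth bounds the members of low count, such as Ndufb4.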

Other observations

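Partners of the chain outside the name rule were also measured. Cycs, the soluble cytochrome c, was at 169 to 256 rescaled counts in Het and 298, 273, 361 and 204 in KO, so that the groups overlapped through KO 4. Cyc1, the cytochrome of complex III, was at 181 to 190 in Het and 242, 180, 359 and 187 in KO. Atpif1, which inhibits ATP synthase when it runs backwards, was at 1296 to 1540 in Het and 1244, 1254, 2536 and 1110 in KO, with KO 3 alone above Het and the others below it. Of 11 such genes limma (deposited scaling) and edgeR called 0 and DESeq2 0 of 10, with 0 at an unadjusted p under 0.05 in each. On rescaled counts limma called 0 of 8 after adjustment and had 1 higher, Cycs (log2 fold change 0.46 ± 0.19, adjusted p = 0.128), and 1 lower, Gpd2 (−0.43 ± 0.18, adjusted p = 0.138), unadjusted; these were chosen after their values were seen. Ndufb1-ps, which the name rule leaves out although its mean of 182 normalized counts is above that of some members, is annotated in GENCODE M21 as a noncoding RNA from a bidirectional promoter; it was at 141 to 175 rescaled counts in Het and 218, 168, 344 and 179 in KO.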
